A study of Mus musculus with 21 samples.

Results

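The genes described here are a list of 36 genes of glycolysis and of the response to low oxygen, out of 20900 genes measured by RNA-seq in mouse embryonic stem cells exposed to inhibitors of RNA polymerase I. They were taken by symbol from the table of log2 expression values, and all 36 were found in it. The cells were E14, a single line of 129 strain embryonic stem cells, grown in serum with leukaemia inhibitory factor in every group. They were exposed to BMH-21 at 1 µM, or to CX-5461 at the same concentration, for 2, 4 or 8 h, or to no inhibitor (0 h, the control). Each of the 7 groups had 3 replicate libraries of poly(A) RNA, 21 in all. BMH-21 and CX-5461 are DNA-binding small molecules that block transcription of the ribosomal RNA genes. The inhibitors came with a change of medium, and the control libraries were taken at 0 h, so time after the change cannot be told apart from the inhibitors. All comparisons with control share the same 3 control libraries. The samples are labelled as replicates without a statement that they were separate cultures. The p-values therefore measure the spread between these samples, mostly pooled over genes, which may be technical.

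Glycolysis converts glucose to pyruvate in the cytosol. Glucose enters through facilitative transporters, is trapped by hexokinases and committed by phosphofructokinase, and its pyruvate is either reduced to lactate, which leaves through monocarboxylate transporters, or oxidised in mitochondria. The heterodimer of HIF1A and ARNT is the main transcription factor of low oxygen. With oxygen present, prolyl hydroxylases (the EGLN enzymes) mark HIF1A for destruction through VHL. Without it, the dimer binds the letters ACGTG or GCGTG near its target genes, which include most steps of glycolysis. Mouse embryonic stem cells also have high glycolytic flux at normal oxygen.

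Of the 36 genes, 34 had a log2 value above 0 in at least 3 of the 21 libraries and were tested, and these 34 were above 0 in every library. The libraries held 46604397 to 62812641 reads, and a log2 value of 0 corresponded to 42 to 86 reads. The scaling factor that the deposited values carry ran from 0.832 to 1.375 between libraries, against 0.941 to 1.107 for factors computed from the median ratio of the genes. The factor was largest in BMH-21 8 h replicate 2, which stood apart from its 2 fellow replicates; with any 1 library left out, 28 to 31 members were called at 8 h of BMH-21, against 31 with all. The scaling touches every direction below: for BMH-21 at 8 h the median change of all 14666 genes tested was -0.40 as deposited, -0.19 after centring each library on its median, and 0.13 with the total reads of the library as scale. "Rose" and "fell" are therefore written only where the test passed in the same direction under 4 scalings: as deposited, centred, by median-ratio factors and by total reads. All changes are differences of log2 values as deposited unless another scale is named. Adjusted p-values are from limma over the 14666 genes, with a threshold of 0.05, and ± beside a change is its standard error. Counts of members under 1 other scaling or setting, or with a library left out, come without the share of all genes. Such counts show how the calls depend on processing and are not results about the list.

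Promoter sequence was looked up for the members because the letters bound by HIF are short and known. RefSeq start sites on build GRCm38.p6 gave windows of 250 bases before to 50 bases after a start for 33 of the 36 genes (47 windows). Slc2a3, Bnip3l and Ndrg1 had no entry. ACGTG or GCGTG, on either strand, occurred in 38 of the 47 windows (80.9%), against 60.0% of 14009 windows of the genes tested and 43.8% of all 32851 windows. ACGTG, with or without GCGTG, was in 57.4% of the members' windows and in 24.3% of those of tested genes. GCGTG, with or without ACGTG, was in 57.4% and 48.9%. The match is a description of letters and not of binding: ACGTG is also contained in CACGTG, the E-box letters read by MYC family factors, and GCGTG in the letters read by the aryl hydrocarbon receptor. The 150 bases before the start are shown for 6 genes on which the results turn, 4 that were lower at 4 h of both inhibitors and 2 that were higher at 8 h of both. Each runs 5′ to 3′ on the strand of its gene, with capitals on ACGTG and GCGTG and on their reverse complements CACGT and CACGC. The positions are chr4:119108595-119108744 (plus strand) for Slc2a1, chr11:120948917-120949066 (plus) for Slc16a3, chr2:71873074-71873223 (plus) for Pdk1, chr7:138909507-138909656 (minus) for Bnip3, chr9:108991752-108991901 (plus) for Pfkfb4 and chr11:54100774-54100923 (plus) for P4ha2.
Slc2a1: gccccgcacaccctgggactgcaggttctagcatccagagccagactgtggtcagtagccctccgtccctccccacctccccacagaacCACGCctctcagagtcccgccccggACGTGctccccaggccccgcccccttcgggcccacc
Slc16a3: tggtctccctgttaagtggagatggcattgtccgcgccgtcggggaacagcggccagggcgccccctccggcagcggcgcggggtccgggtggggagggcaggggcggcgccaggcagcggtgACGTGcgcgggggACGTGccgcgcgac
Pdk1: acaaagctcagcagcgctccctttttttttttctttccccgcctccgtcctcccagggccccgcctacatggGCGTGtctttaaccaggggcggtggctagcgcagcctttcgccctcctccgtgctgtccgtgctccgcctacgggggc
Bnip3: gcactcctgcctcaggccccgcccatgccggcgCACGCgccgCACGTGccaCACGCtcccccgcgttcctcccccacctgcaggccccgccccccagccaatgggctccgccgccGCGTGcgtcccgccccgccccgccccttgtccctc
Pfkfb4: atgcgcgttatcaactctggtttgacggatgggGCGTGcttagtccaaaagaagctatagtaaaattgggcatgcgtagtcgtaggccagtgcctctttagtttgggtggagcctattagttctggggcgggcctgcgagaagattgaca
P4ha2: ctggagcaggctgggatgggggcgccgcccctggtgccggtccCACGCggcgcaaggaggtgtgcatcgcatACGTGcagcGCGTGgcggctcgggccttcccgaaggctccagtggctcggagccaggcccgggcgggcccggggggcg
Bnip3 held 5 matches in its 150 bases, of which an ACGTG on each strand overlap as CACGTG. P4ha2 held 3 matches, Slc2a1 and Slc16a3 held 2 each, and Pdk1 and Pfkfb4 held 1 each. By gene, 30 of the 33 members (90.9%) and 65.7% of the tested genes with a window held ACGTG or GCGTG. The presence of the letters in genes of both directions is therefore uninformative.

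At 4 h of either inhibitor the transporters of glucose and lactate, the hexokinase Hk2, the pyruvate dehydrogenase kinase Pdk1 and the mitophagy receptor gene Bnip3 had fallen, while Pfkfb4, which encodes a regulator of phosphofructokinase, had risen. At 8 h these falls persisted or deepened with BMH-21, Bnip3 excepted, and were mostly smaller with CX-5461. By total reads, Slc2a1, Hk2 and Slc16a3 at 8 h of BMH-21 stood between their 4 h and control levels. The enzymes of lower glycolysis other than Eno2 moved less, and for several of them, Gapdh and Pgk1 included, no direction at 8 h of BMH-21 held under the 4 scalings. A small group, Pfkfb4, Eno2, Egln3, P4ha1 and P4ha2, rose by 8 h with both inhibitors.

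With BMH-21 at 2 h, 3 of the 34 members rose and 6 fell, where 8.43% of all genes tested rose and 11.0% fell by the same rule. As deposited 9 members were called (19.7% of all genes), and only 5 without BMH-21 2 h replicate 1 or without control replicate 1. After 4 h 3 rose and 12 fell (22.0% and 35.7% of all genes), and after 8 h 5 rose and 12 fell (24.5% and 33.4%). CX-5461 gave 1 rise and 5 falls at 2 h (7.44% and 12.8% of all genes), 3 and 12 at 4 h (19.7% and 29.8%), and 6 and 5 at 8 h (29.3% and 14.1%). Leaving out CX-5461 2 h replicate 1 raised the members called there as deposited from 9 (27.9% of all genes) to 17. The 12 of 34 that fell in 3 of these comparisons are 35.3%, near the share of all genes, so the number of falls is not a result about the list.

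Falls of at least 2-fold, as deposited and after centring, were a larger share of the members at 4 h than of all genes. The members were chosen with earlier results of these data known, so this excess cannot be told apart from their choice. Falls of at least 2-fold, as deposited and after centring, were 6 of 34 (17.6%) at 4 h of each inhibitor, against 5.42% of all genes with BMH-21 and 3.35% with CX-5461, and 6 of 34 against 11.6% at 8 h of BMH-21. The 6 at 4 h were Slc2a1, Slc2a3, Slc16a3, Hk2, Pdk1 and Bnip3 with BMH-21, and Slc2a3, Slc16a3, Hk2, Pdk1, Bnip3 and Ndrg1 with CX-5461. By total reads Slc2a1, Slc2a3, Slc16a3 and Hk2 were at -1.15 to -1.08 at 4 h of BMH-21. At 4 h of CX-5461 Slc2a3 was at -1.02, but Slc16a3 and Hk2 were at -0.9, short of 2-fold. Mean reads per kilobase, scaled by total reads, went there from 34.6 to 18.4 for Pdk1, also short of 2-fold. They went from 23.8 to 11.7 for Bnip3 and from 4.11 to 1.85 for Ndrg1. The share of all genes by total reads is not given here. The median change of the 34 members at 4 h of BMH-21, -0.23, was near that of all genes, -0.21. It was -0.35 at 4 h of CX-5461, where that of all genes was -0.28. At 8 h of BMH-21 it was -0.56, where that of all genes was -0.40.

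As deposited alone, more members passed, and so did more of all genes. At 4 h of BMH-21 this gave 3 members higher and 18 lower, where 67.0% of all genes were called (22.1% higher, 44.9% lower). At 8 h of BMH-21 it gave 5 and 26, where 81.5% were called (24.5% and 56.9%), and at 4 h of CX-5461 3 and 24, where 70.9% were called (19.8% and 51.2%). The split at 8 h of CX-5461 was the least settled, with 9 members higher and 5 lower as deposited (of all genes 49.4% were called, 35.1% higher and 14.3% lower), 6 and 19 after centring, and 16 and 6 by total reads. The shares of all genes after centring alone and by total reads alone are not given, so these shifts are not results about the list.

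**Figure D1:**
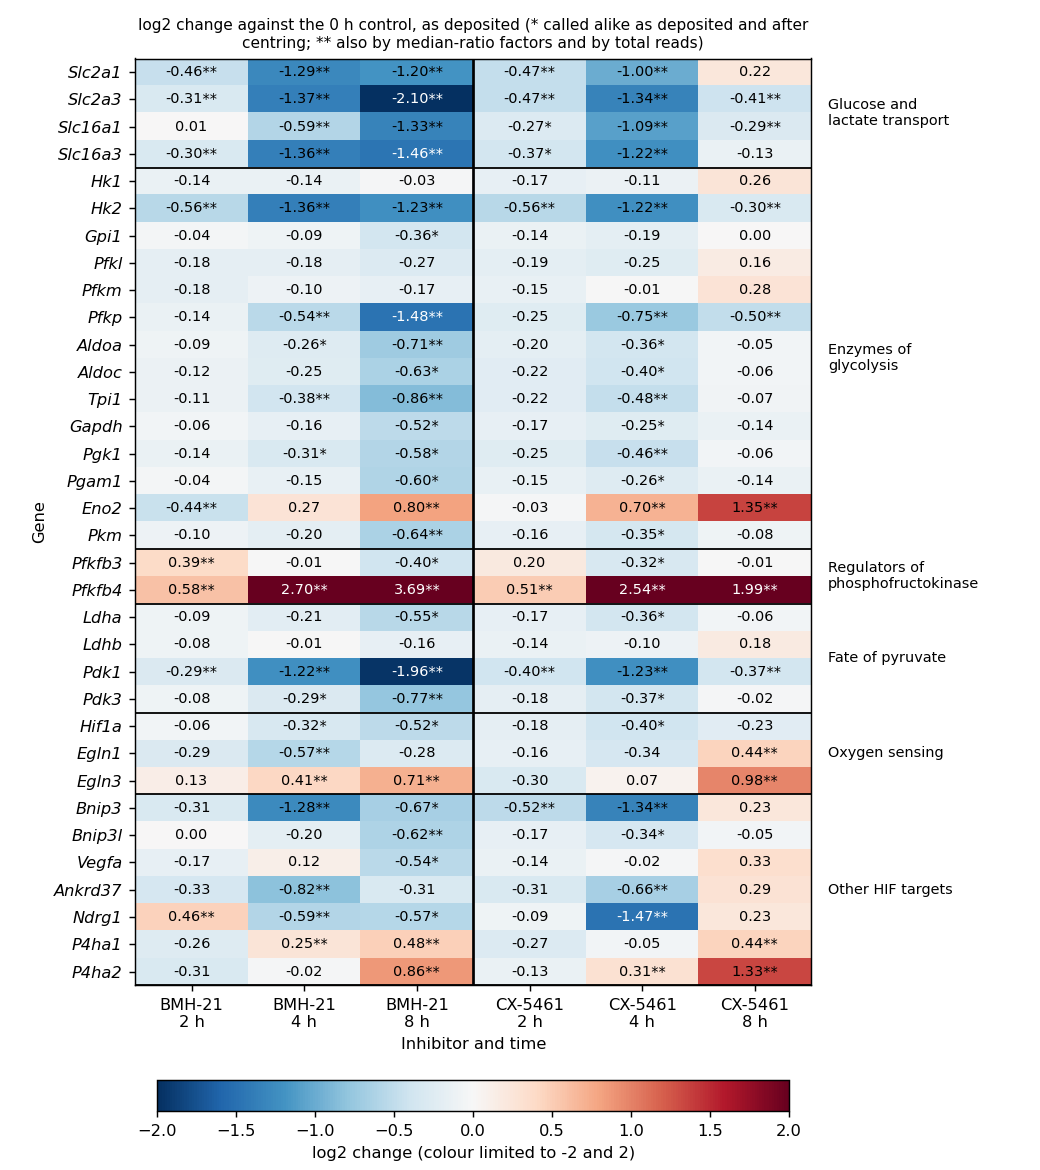
log2 change against the 0 h control of the 34 members tested (rows, grouped by role) in the 6 inhibitor groups (columns), as deposited, with colour from blue (lower) to red (higher). One mark stands for the same call as deposited and after centring and a pair of marks for the same call under 4 scalings. The transporters, Hk2 and Pdk1 are blue at 4 h of both inhibitors and at 8 h of BMH-21, palest for Slc16a1 at 4 h of BMH-21 (-0.59). Pfkfb4 is dark red from 4 h.

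The 4 transporters were among the most affected members, and all 4 fell at 4 h of both inhibitors and at 8 h of BMH-21. Slc2a1 encodes the basal glucose transporter of most cells (chromosome 4, 119108711 to 119137983, mm10). Its log2 values were 9.10, 9.03 and 8.94 in the control libraries. With BMH-21 they were 8.43, 8.64 and 8.61 at 2 h, 7.86, 7.60 and 7.72 at 4 h, and 7.94, 7.69 and 7.86 at 8 h. With CX-5461 they were 8.65, 8.46 and 8.54 at 2 h, 7.97, 8.14 and 7.96 at 4 h, and 9.26, 9.10 and 9.36 at 8 h. Every BMH-21 library was thus below all controls, whereas the CX-5461 libraries were below them at 2 and 4 h and above the highest control, in 1 library by less than the second decimal, at 8 h. The fall was 1.29 ± 0.10 at 4 h of BMH-21 (adjusted p = 5.2e-23) and 1.00 ± 0.10 at 4 h of CX-5461 (4.6e-16), and the change at 8 h of CX-5461 was 0.22 ± 0.10 (0.07).

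Slc2a3 encodes a glucose transporter of high affinity (chromosome 6, 122727809 to 122801640). It stood at 9.62, 9.58 and 9.48 in the controls. Under BMH-21 it was at 9.09, 9.37 and 9.31 after 2 h, 8.36, 8.10 and 8.10 after 4 h and 7.70, 7.19 and 7.5 after 8 h. Under CX-5461 it was at 9.22, 9.01 and 9.05, then 8.10, 8.39 and 8.17, then 9.17, 9.02 and 9.27, in the same order of times. No library of either inhibitor reached the lowest control, and the BMH-21 8 h libraries were the lowest of all. It had the largest fall of the 34 members at 8 h of BMH-21 on each of the 4 scalings, by 2.1 ± 0.11 as deposited, a level 4.28-fold lower (adjusted p = 3.7e-39), by 1.88 after centring and by 1.56 by total reads. At 8 h of CX-5461 it was still lower by 0.41 ± 0.11 (5.7e-04).

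The monocarboxylate transporters carry lactate and pyruvate across the plasma membrane. Slc16a1 was at 7.55, 7.57 and 7.32 in the controls, at 7.38, 7.61 and 7.48 at 2 h of BMH-21, at 7.07, 6.83 and 6.76 at 4 h and at 6.29, 5.99 and 6.16 at 8 h. With CX-5461 it was at 7.30, 7.10 and 7.23, then 6.22, 6.57 and 6.39, then 7.27, 7.11 and 7.18. The BMH-21 libraries overlapped the controls at 2 h and lay below them at 4 and 8 h, and it fell by 0.59 ± 0.11 at 4 h (adjusted p = 6.0e-07) and by 1.33 ± 0.11 at 8 h (1.2e-22). The CX-5461 fall was deeper at 4 h, 1.09 ± 0.11 (6.4e-17).

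Slc16a3, which encodes the lactate exporter of glycolytic cells, was at 8.05, 7.81 and 8.01 in the controls. Its values with BMH-21 were 7.57, 7.66 and 7.74 at 2 h, 6.67, 6.48 and 6.65 at 4 h and 6.66, 6.28 and 6.55 at 8 h. Its values with CX-5461 were 7.76, 7.52 and 7.47, then 6.73, 6.81 and 6.66, then 7.81, 7.69 and 7.97. It had reached its low level by 4 h of both inhibitors, and at 8 h the CX-5461 libraries overlapped the controls. Falls at 4 h were 1.36 ± 0.11 (BMH-21, adjusted p = 4.0e-23) and 1.22 ± 0.11 (CX-5461, 5.4e-20), and the change at 8 h of CX-5461 was -0.13 ± 0.11 (0.32). In bulk RNA of this kind, fewer cells of a type and less RNA per cell cannot be told apart.

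**Figure D2:**
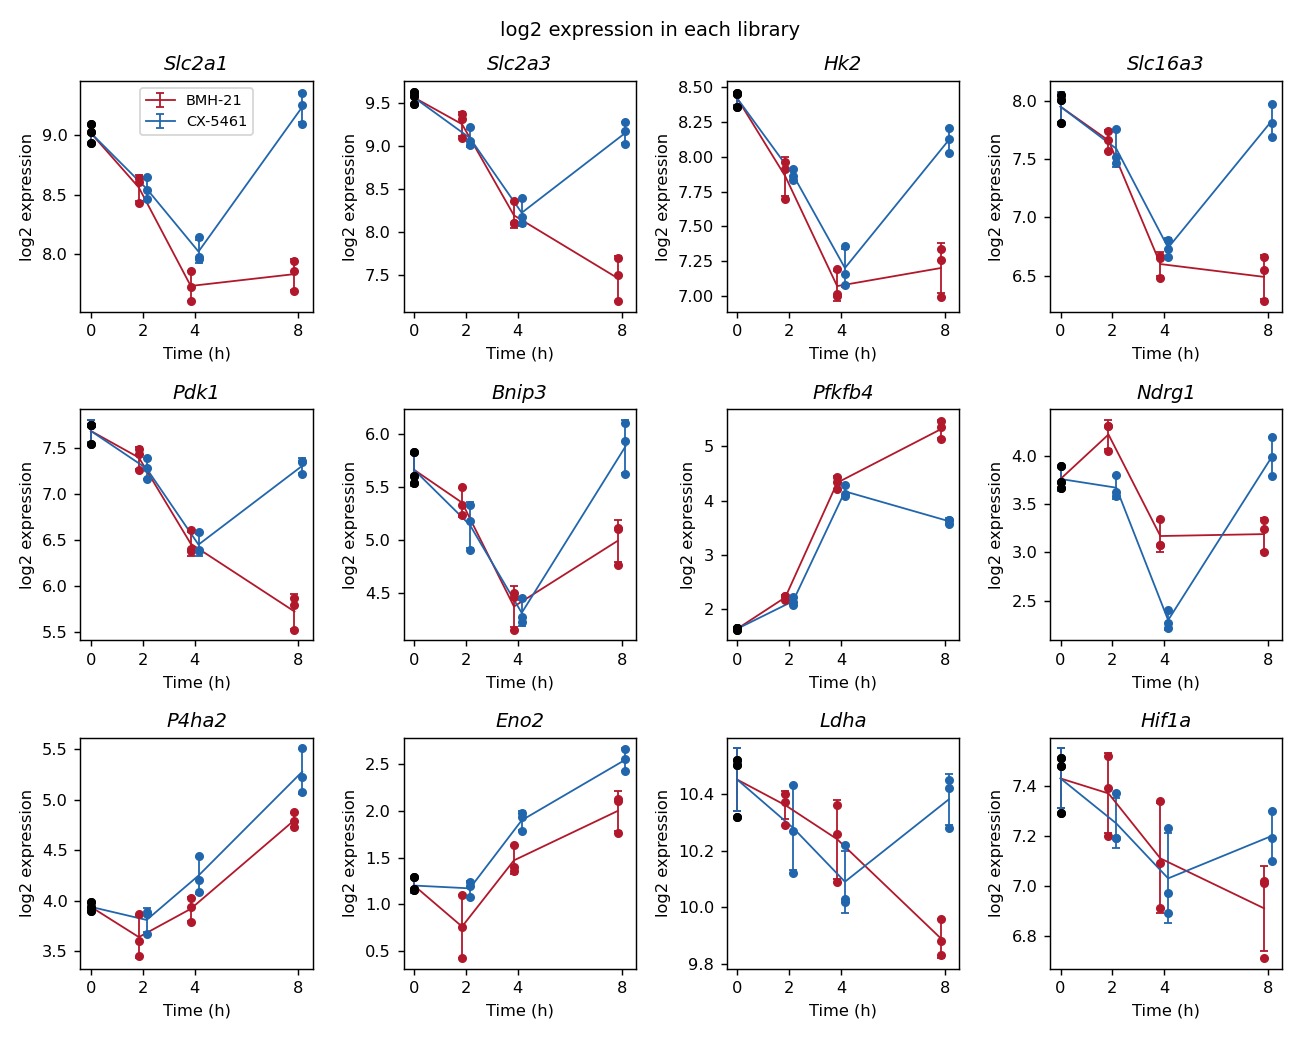
log2 expression of 12 members against time in hours, with a point for each library, lines through the group means and bars of 1 SD (n = 3); control black, BMH-21 red, CX-5461 blue, with an axis of its own in each panel and the inhibitors set slightly apart in time. For Slc2a3, Hk2, Slc16a3, Pdk1, Bnip3 and Pfkfb4 the libraries of both inhibitors overlap at 2 and 4 h and lie apart at 8 h, while those of Slc2a1 lie apart already at 4 h.

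Of the 14 enzymes of glycolysis tested, Hk2, Pfkp and Eno2 were the 3 with a called change of at least 2-fold, as deposited and after centring, in a comparison with control. Hk2, the hexokinase bound to the outer mitochondrial membrane in fast-growing cells, was at 8.46, 8.45 and 8.36 in the controls. It was at 7.70, 7.96 and 7.91 at 2 h of BMH-21, 7.19, 7.0 and 7.01 at 4 h, and 7.34, 6.99 and 7.26 at 8 h. With CX-5461 it was at 7.91, 7.83 and 7.86, then 7.08, 7.36 and 7.16, then 8.13, 8.03 and 8.21. Every library of both inhibitors was below all controls, from 2 h on. The fall at 2 h, 0.56 ± 0.10 with each inhibitor (adjusted p = 6.7e-06 and 9.3e-06), was the largest of any member with BMH-21 at that time on all 4 scalings. At 4 h it was 1.36 ± 0.10 with BMH-21 (9.8e-24) and 1.22 ± 0.10 with CX-5461 (1.2e-20). Hk1, the housekeeping hexokinase, was not called as deposited in any of the 3 BMH-21 comparisons with control, with changes of -0.14, -0.14 and -0.03, though by total reads it was at 0.51 at 8 h (2.7e-11).

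Pfkp encodes the platelet isozyme of phosphofructokinase. Its values were 8.01, 7.97 and 7.83 in the controls, 7.68, 7.81 and 7.89 at 2 h of BMH-21, 7.56, 7.25 and 7.36 at 4 h and 6.62, 6.26 and 6.47 at 8 h. CX-5461 libraries held 7.83, 7.55 and 7.67 at 2 h, 7.04, 7.34 and 7.19 at 4 h and 7.45, 7.31 and 7.55 at 8 h. At 2 h the BMH-21 libraries overlapped the controls and the CX-5461 libraries lay just below them, with neither change called (-0.14 and -0.25, adjusted p = 0.42 and 0.064), and with BMH-21 the level at 8 h was below that at 4 h. The fall was 0.54 ± 0.11 at 4 h of BMH-21 (adjusted p = 3.8e-06), 1.48 ± 0.11 at 8 h (3.8e-26), and 0.75 and 0.50 at 4 and 8 h of CX-5461 (8.1e-10 and 3.2e-05). The liver and muscle isozymes Pfkl and Pfkm were at -0.27 and -0.17 at 8 h of BMH-21, and at -0.06 and 0.04 after centring. Their mean reads per kilobase, scaled by total reads, went up there, from 80.4 to 96.6 and from 12.8 to 16.5.

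The enzymes from aldolase to pyruvate kinase, Eno2 aside, shifted less. Tpi1, triose phosphate isomerase, fell by 0.38 at 4 h and 0.86 at 8 h of BMH-21 (adjusted p = 7.5e-04 and 3.0e-13) and by 0.48 at 4 h of CX-5461 (2.3e-05), and at 8 h of BMH-21 the fall was 0.33 by total reads. Pgk1, the first ATP-forming step, was at 9.73, 9.69 and 9.5 in the controls, at 9.44, 9.53 and 9.54, 9.49, 9.19 and 9.32, and 9.13, 8.99 and 9.07 after 2, 4 and 8 h of BMH-21. After 2, 4 and 8 h of CX-5461 it was at 9.54, 9.23 and 9.40, 9.11, 9.31 and 9.11, and 9.6, 9.48 and 9.66. All 3 BMH-21 8 h libraries were below the controls as deposited, by -0.58 ± 0.10 (1.3e-07), but the change was -0.04 by total reads and 0.12 after quantile normalization, so it has no direction that holds. The same applied at 8 h of BMH-21 to Gapdh (-0.52 as deposited, 0.02 by total reads), Gpi1 (-0.36 and 0.17), Pgam1 and Aldoc. As deposited and after centring 10 of the 14 enzymes were lower there (51.3% of all genes), and under the 4 scalings 5 were: Hk2, Pfkp, Tpi1, Aldoa and Pkm. For Aldoa and Pkm the change by total reads was small, -0.17 and -0.10, beside -0.71 and -0.64 as deposited.

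Eno2, the neuronal enolase, was the 1 enzyme that rose by 8 h, from a low level. Control libraries stood at 1.16, 1.29 and 1.15 (104 to 111 reads). BMH-21 libraries stood at 0.42, 1.10 and 0.76 at 2 h, 1.64, 1.36 and 1.4 at 4 h and 2.13, 1.76 and 2.11 at 8 h, and CX-5461 libraries at 1.24, 1.08 and 1.2, then 1.78, 1.98 and 1.93, then 2.56, 2.43 and 2.66. All 8 h libraries lay above the controls, and the 2 h libraries of BMH-21 below them with a wide spread. The rise was 0.80 ± 0.16 at 8 h of BMH-21 (adjusted p = 4.0e-06) and 1.35 ± 0.16 at 8 h of CX-5461 (1.0e-12), and the 2 h fall of 0.44 with BMH-21 was near the threshold (0.038).

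Pfkfb3 and Pfkfb4 encode bifunctional enzymes that make and remove a fructose bisphosphate known as the most potent activator of phosphofructokinase. Pfkfb4 had the largest change of the list. Its control values were 1.64, 1.61 and 1.64 (138 to 147 reads). BMH-21 brought 2.23, 2.24 and 2.16 at 2 h, 4.44, 4.21 and 4.35 at 4 h, and 5.36, 5.14 and 5.47 at 8 h (2468 to 3042 reads). CX-5461 brought 2.13, 2.07 and 2.21 at 2 h, 4.09, 4.29 and 4.12 at 4 h, and 3.56, 3.65 and 3.65 at 8 h. Every inhibitor library was above all controls, the 3 BMH-21 groups were in the order of time with no overlap, and the CX-5461 8 h libraries were below those of 4 h. It rose by 0.58 ± 0.12 at 2 h of BMH-21 (adjusted p = 6.1e-05), 2.70 at 4 h, a 6.52-fold higher level (1.8e-44), and 3.69 at 8 h, 12.9-fold (1.1e-58). With CX-5461 it rose by 0.51 ± 0.12 at 2 h (4.3e-04), 2.54 at 4 h, 5.81-fold (1.0e-41), and 1.99 at 8 h, 3.97-fold (4.8e-32).

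Pfkfb3 did not follow it. It was at 4.43, 4.38 and 4.23 in the controls, 4.55, 4.95 and 4.73 at 2 h of BMH-21, 4.54, 4.20 and 4.27 at 4 h and 4.03, 3.65 and 4.16 at 8 h. After CX-5461 it was at 4.64, 4.51 and 4.49, then 3.99, 4.10 and 3.99, then 4.33, 4.17 and 4.52. All 3 libraries of BMH-21 at 2 h were above the controls, a rise of 0.39 ± 0.12 (adjusted p = 0.0093). At 8 h the change was -0.40 ± 0.12 as deposited and 0.13 by total reads.

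At the fate of pyruvate, the kinase that closes the way into mitochondria fell. Against control, neither Ldha nor Ldhb had a direction of its level that held under the 4 scalings. Pdk1 phosphorylates and inactivates pyruvate dehydrogenase and is a classical HIF target (chromosome 2, 71873224 to 71903858). It was at 7.75, 7.76 and 7.55 in the controls, at 7.26, 7.49 and 7.44 at 2 h of BMH-21, 6.61, 6.38 and 6.40 at 4 h and 5.87, 5.52 and 5.79 at 8 h. With CX-5461 it was at 7.39, 7.17 and 7.29, then 6.38, 6.59 and 6.39, then 7.35, 7.22 and 7.36. No inhibitor library overlapped the controls at any time, and it fell in all 6 comparisons. The fall at 4 h was 1.22 ± 0.11 with BMH-21 (adjusted p = 3.6e-20) and 1.23 ± 0.11 with CX-5461 (3.0e-20), and at 8 h it was 1.96 ± 0.11, 3.89-fold, with BMH-21 (5.0e-36) and 0.37 ± 0.11 with CX-5461 (0.002). Pdk3, a kinase of the same family, fell at 8 h of BMH-21, by 0.77 as deposited.

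Ldha, the lactate dehydrogenase subunit of glycolytic cells, was at 10.52, 10.5 and 10.32 in the controls. Under BMH-21 it was at 10.29, 10.40 and 10.37, then 10.36, 10.09 and 10.26, then 9.96, 9.83 and 9.88, and under CX-5461 at 10.43, 10.12 and 10.27, then 10.03, 10.22 and 10.02, then 10.42, 10.28 and 10.45. The BMH-21 8 h libraries were below the controls as deposited, by -0.55 ± 0.10 (adjusted p = 2.1e-07), yet the change was -0.02 by total reads. Ldhb, the heart subunit, was at -0.16 as deposited and 0.05 after centring at 8 h of BMH-21. Its mean reads per kilobase, scaled by total reads, went up there from 122 to 158.

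Of the 3 oxygen sensing genes, Hif1a had no direction that held under the 4 scalings, and both hydroxylases rose at 8 h of CX-5461. Hif1a was at 7.48, 7.51 and 7.29 in the controls, at 7.20, 7.52 and 7.39, then 7.34, 7.09 and 6.91, then 7.02, 6.71 and 7.01 with BMH-21, and at 7.37, 7.19 and 7.19, then 6.89, 7.23 and 6.97, then 7.30, 7.19 and 7.10 with CX-5461. BMH-21 at 8 h gave -0.52 ± 0.11 (adjusted p = 1.0e-05) as deposited, -0.30 after centring and 0.02 by total reads, and in none of the 6 comparisons with control was it called in 1 direction under the 4 scalings. These are mRNA values, while HIF1A is regulated mostly as a protein, which was not measured.

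Egln3, a prolyl hydroxylase whose own gene is induced by HIF, was at 3.78, 3.51 and 3.69 in the controls. It was at 3.68, 3.75 and 3.91, then 4.19, 3.85 and 4.17, then 4.46, 4.18 and 4.45 with BMH-21, and at 3.55, 3.08 and 3.43, then 3.70, 3.82 and 3.66, then 4.54, 4.49 and 4.88 with CX-5461. BMH-21 libraries were above the controls from 4 h and CX-5461 libraries at 8 h only. It rose by 0.71 ± 0.12 at 8 h of BMH-21 (adjusted p = 7.2e-08) and by 0.98 ± 0.12 at 8 h of CX-5461 (3.8e-12). Egln1, the main hydroxylase at normal oxygen, fell by 0.57 at 4 h of BMH-21 (1.1e-05) and rose by 0.44 at 8 h of CX-5461 (0.001).

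The 7 other HIF targets tested did not move as 1 group. Bnip3, a mitophagy receptor (chromosome 7, 138890836 to 138909519), was at 5.83, 5.54 and 5.60 in the controls, at 5.33, 5.23 and 5.50, then 4.50, 4.15 and 4.46, then 5.11, 4.76 and 5.10 with BMH-21. With CX-5461 it was at 5.33, 4.90 and 5.18, then 4.27, 4.45 and 4.22, then 5.93, 5.62 and 6.10. Its low point was 4 h with both inhibitors, after which the CX-5461 libraries overlapped the controls and the BMH-21 libraries did not. It fell by 1.28 ± 0.12 at 4 h of BMH-21 (adjusted p = 6.0e-19) and 1.34 ± 0.12 at 4 h of CX-5461 (5.5e-20), and at 8 h of BMH-21 it was at -0.67 as deposited and -0.14 by total reads. Its relative Bnip3l fell at 8 h of BMH-21, by 0.62 as deposited, with -0.09 by total reads.

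Ndrg1, a stress-responsive gene strongly induced by low oxygen, already differed between the inhibitors at 2 h. Control values were 3.89, 3.67 and 3.73. BMH-21 gave 4.05, 4.31 and 4.31 at 2 h, 3.35, 3.08 and 3.08 at 4 h and 3.34, 3.00 and 3.24 at 8 h. CX-5461 gave 3.80, 3.58 and 3.63 at 2 h, 2.22, 2.41 and 2.27 at 4 h and 3.99, 3.79 and 4.19 at 8 h. It was above the controls at 2 h of BMH-21, where the CX-5461 libraries overlapped them, and lowest at 4 h of CX-5461. The rise was 0.46 ± 0.12 at 2 h of BMH-21 (adjusted p = 0.0024), and the fall 0.59 ± 0.12 at 4 h of BMH-21 (8.7e-06) and 1.47 ± 0.12 at 4 h of CX-5461 (1.9e-21). Ankrd37, a small ankyrin repeat gene, also fell at 4 h, by 0.82 in the BMH-21 libraries (1.6e-07) and 0.66 in those of CX-5461 (1.8e-05).

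Vegfa, the angiogenic growth factor most often used as a readout of HIF, was at 4.24, 4.20 and 4.24 in the controls. It was at 3.90, 4.14 and 4.14, then 4.45, 4.25 and 4.32, then 3.76, 3.41 and 3.89 with BMH-21, and at 4.26, 4.02 and 3.98, then 4.11, 4.39 and 4.13, then 4.63, 4.39 and 4.67 with CX-5461. It ran below the controls at 8 h of BMH-21 and above them at 8 h of CX-5461, but neither held under the 4 scalings: -0.54 ± 0.12 as deposited with BMH-21 (adjusted p = 1.5e-05) was -0.01 by total reads, and 0.33 ± 0.12 with CX-5461 (0.013) was 0.12 after centring.

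The collagen prolyl hydroxylases rose. P4ha2 (chromosome 11, 54100095 to 54131665) was at 3.99, 3.94 and 3.90 in the controls, at 3.45, 3.60 and 3.87, then 4.03, 3.79 and 3.94, then 4.79, 4.73 and 4.88 with BMH-21, and at 3.89, 3.67 and 3.87, then 4.09, 4.44 and 4.21, then 5.23, 5.08 and 5.51 with CX-5461. All 8 h libraries exceeded the controls, and those of CX-5461 already at 4 h. The rise at 8 h was 0.86 ± 0.12 with BMH-21 (adjusted p = 6.8e-11) and 1.33 ± 0.12 with CX-5461 (7.3e-20). P4ha1 rose by 0.48 and 0.44 at 8 h of BMH-21 and CX-5461 (7.1e-05 and 6.0e-04), and by 0.25 at 4 h of BMH-21 with overlapping libraries (0.042).

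The other 2 members, Eno1 and Car9, were below the filter. Car9, a carbonic anhydrase gene that is nearly silent without low oxygen, had 11 to 38 reads per library, with group means from -2.24 to -0.68. Eno1, the main enolase, was listed with 3 to 13 reads per library. Its near-identical copy Eno1b had a control mean of 10.42, so reads of Eno1 and Eno1b cannot be told apart and no value for Eno1 is interpreted.

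**Figure D3:**
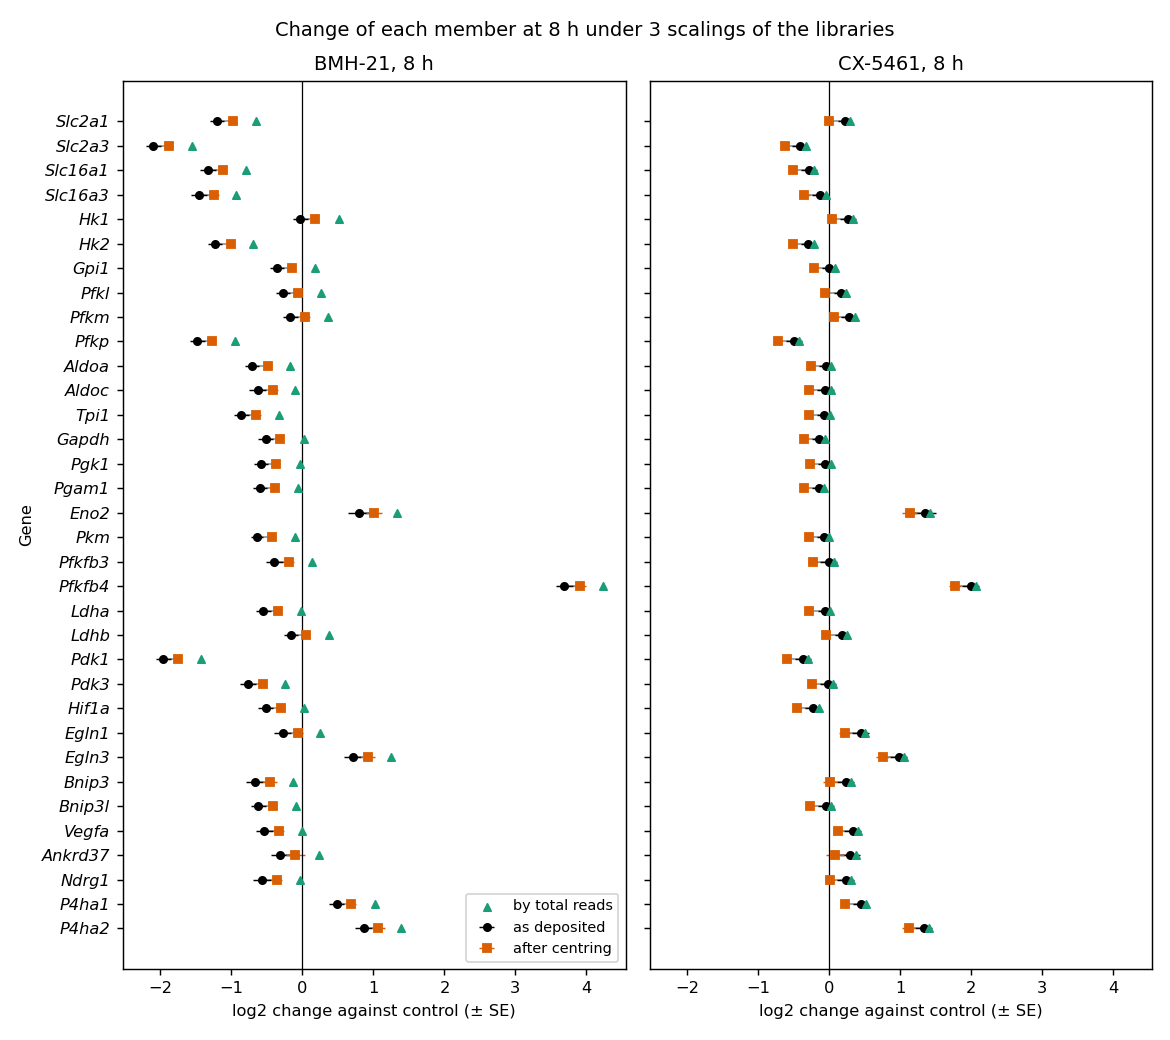
log2 change against control at 8 h (horizontal axis) of the 34 members (vertical axis) for BMH-21 (left) and CX-5461 (right), as deposited and after centring with bars of 1 standard error, and by total reads without bars. For BMH-21 the total-read values of Gapdh (0.02), Ldha (-0.02) and Hif1a (0.02) lie at 0, while Slc2a3 (-1.56) and Pfkfb4 (4.23) keep their side.

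BMH-21 and CX-5461 were compared directly to ask whether the inhibitors differ at a given time. At 2 h, 2 members were higher with BMH-21 under the 4 scalings, Egln3 by 0.43 ± 0.12 and Ndrg1 by 0.55 ± 0.12 (adjusted p = 0.019 and 0.0011), where 2.36% of all genes were higher and 1.51% lower. Without BMH-21 2 h replicate 3 or CX-5461 2 h replicate 2 only 1 was called as deposited, against 2 with all libraries (3.99% of all genes). At 4 h, Slc16a1 (0.50) and Ndrg1 (0.87) were higher with BMH-21, and Slc2a1 (-0.30), Eno2 (-0.43) and P4ha2 (-0.33) lower, against 9.12% and 8.46% of all genes. As deposited 6 were called (17.8% of all genes), and 2 without BMH-21 4 h replicate 3 or CX-5461 4 h replicate 3. For Pfkfb4 and Pdk1 the difference at 4 h was 0.17 ± 0.12 and 0.01 ± 0.11 (0.35 and 0.96).

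At 8 h, 1 member was higher with BMH-21 and 15 were lower under the 4 scalings, against 12.0% and 36.4% of all genes, so the 44.1% of members that were lower is not far from the background. The median difference of the members was -0.56 as deposited and -0.14 after centring, beside -0.48 and -0.06 for all genes. Pfkfb4 was the member that was higher, by 1.71 ± 0.12 (adjusted p = 2.6e-26). All 4 transporters were lower, from 1.04 ± 0.11 for Slc16a1 (1.0e-15) to 1.69 ± 0.11 for Slc2a3 (6.1e-30), with Slc2a1 at -1.41 (3.7e-25) and Slc16a3 at -1.33 (3.5e-22) between them. Pdk1 was lower by 1.59 ± 0.11 (1.8e-27), Hk2 by 0.93 ± 0.10 (5.4e-14), Pfkp by 0.98 ± 0.11 (9.6e-15), Bnip3 by 0.90 ± 0.12 (2.7e-11) and Ndrg1 by 0.80 ± 0.12 (5.2e-09). As deposited 32 members were lower and 1 higher, where 79.2% of all genes were called (67.2% lower, 12.0% higher), and after centring 16 and 4.

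The 8 h and 4 h libraries were compared within each inhibitor, since they are separate libraries that share no control. With CX-5461, 13 members rose from 4 to 8 h and 1 fell under the 4 scalings (25.8% and 4.85% of all genes). The 13 were the 4 transporters, Hk2, Eno2, Pdk1, Egln1, Egln3, Bnip3, Ankrd37, Ndrg1 and P4ha2. Ndrg1 rose by 1.69 ± 0.12 (adjusted p = 1.8e-24), Bnip3 by 1.57 ± 0.12 (2.8e-23), Slc2a1 by 1.21 ± 0.10 (4.5e-20), Slc16a3 by 1.09 ± 0.11 (2.1e-16), Hk2 and Slc2a3 by 0.93 each (2.0e-13 and 2.6e-13) and Pdk1 by 0.86 ± 0.11 (1.1e-11). Pfkfb4 was the member that fell, by 0.55 ± 0.12 (3.9e-05). As deposited 29 were higher and 1 lower at 8 h, where 63.7% of all genes were called (58.8% higher, 4.85% lower), and after centring 13 and 7.

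With BMH-21, 7 members rose from 4 to 8 h and 11 fell (18.5% and 21.6% of all genes). Pfkfb4 rose a further 0.99 ± 0.12 (adjusted p = 2.5e-12), P4ha2 0.88 (1.2e-10), Bnip3 0.61 (3.6e-06) and Eno2 0.53 (0.0031), with Egln1, Egln3 and Ankrd37 as the others. The falls were led by Pfkp at 0.94 ± 0.11 (2.3e-13), Slc16a1 and Pdk1 at 0.74 each (2.9e-09 and 2.5e-09) and Slc2a3 at 0.73 (2.7e-09). Slc2a1, Hk2 and Slc16a3 changed by 0.10, 0.13 and -0.11 (0.42, 0.29 and 0.41). The split of members called here, 7 higher and 17 lower as deposited (56.4% of all genes called, 18.6% higher and 37.8% lower), was 17 and 11 by total reads.

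The balance within gene families does not depend on the scaling of a library, and was computed per kilobase of exon from the recovered reads. Of the reads per kilobase of Pfkfb3 and Pfkfb4, the share of Pfkfb4 was 18.6%, 18.7% and 20.7% in the controls, 59.6%, 61.5% and 62.6% at 4 h of BMH-21, and 80.0%, 81.6% and 79.7% at its 8 h. CX-5461 gave 63.0%, 64.4% and 63.4% at 4 h and 48.1%, 52.5% and 46.4% at 8 h. From the minor form, Pfkfb4 thus became the major one at 4 h of both inhibitors and was near equal to Pfkfb3 at 8 h of CX-5461. Hk1 held 17.5% ± 0.523 (SD, n = 3) of the hexokinase pair in the controls, 33.0% ± 0.318 and 32.7% ± 1.21 at 4 and 8 h of BMH-21, and 31.4% ± 0.752 and 23.7% ± 1.12 at 4 and 8 h of CX-5461. Hk2 remained the major hexokinase in every group.

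Among the phosphofructokinases, Pfkp went from 34.7% ± 0.349 in the controls to 18.5% ± 1.3 at 8 h of BMH-21 and 25.0% ± 0.311 at 8 h of CX-5461, and Pfkl from 56.3% ± 0.380 to 69.6% ± 0.717 and 63.9% ± 0.441. Pdk3 went from 30.4% ± 0.242 of the Pdk1 and Pdk3 pair to 48.7%, 51.6% and 49.6% in the 3 libraries at 8 h of BMH-21, where both kinases were level. Slc2a3 made up 54.4% ± 0.290 of the glucose transporter pair in the controls, and 39.0% ± 2.16 and 43.6% ± 0.170 at 8 h of BMH-21 and CX-5461, so that Slc2a1 became the larger. P4ha2 was 46.6% ± 1.85 of its pair in the controls and 61.9% ± 1.45 at 8 h of CX-5461. Ldha was 84.0% ± 0.238 of the Ldha and Ldhb pair in the controls, and 80.0% ± 0.754 and 81.7% ± 0.897 at 8 h of BMH-21 and CX-5461. These 8 h values did not overlap the controls, and no test was run on the shares.

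On the same per kilobase scale, as reads per kilobase scaled by the total reads of the library (RPKM), control levels of selected members were 1840 ± 41.3 (SD, n = 3) for Gapdh, 1380 ± 2.45 for Pkm, 642 ± 7.63 for Ldha, 166 ± 5.05 for Slc2a3, 139 ± 5.03 for Slc2a1, 53.2 ± 1.92 for Hk2, 34.6 ± 0.252 for Pdk1, 3.22 ± 0.0701 for Pfkfb3 and 0.772 ± 0.0628 for Pfkfb4. These neighbours were separated by more than their spread. Eno2, at 0.715 ± 0.0439, lay within the spread of Pfkfb4, and Car9 (0.232 ± 0.0698) and Eno1 as listed (0.0421) were lower. The genes that fell most were of intermediate level, and the large rise of Pfkfb4 took it to 14.5 ± 0.776 at 8 h of BMH-21.

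**Figure D4:**
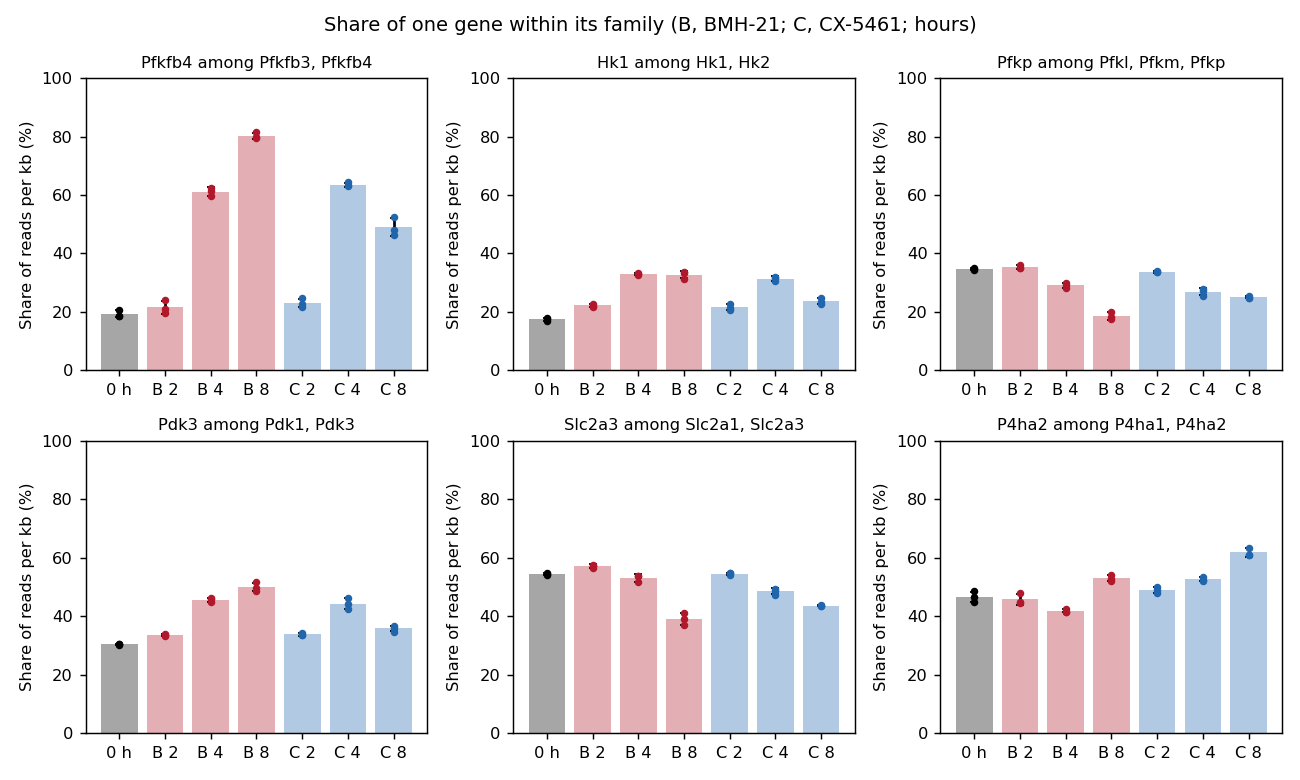
Share of 1 gene in the reads per kilobase of its family (percent, vertical axis) in the 7 groups (horizontal axis), bars for the mean, points for the 3 libraries and error bars of 1 SD; grey control, red BMH-21, blue CX-5461. Pfkfb4 goes from 19.4% in the controls to 80.4% at 8 h of BMH-21, and Pfkp from 34.7% to 18.5%.

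Other genes of the same pathways were taken from a list of 91 genes, of which 90 were in the table and 80 were tested. Under the 4 scalings, 6, 20 and 24 of the 80 rose and 10, 30 and 26 fell at 2, 4 and 8 h of BMH-21. With CX-5461, 5, 17 and 30 rose and 10, 28 and 11 fell. Of all genes, 8.43% rose and 11.0% fell at 2 h of BMH-21, and 22.0% and 35.7% at 4 h. For CX-5461 the shares of all genes were 7.44% and 12.8% at 2 h, and 19.7% and 29.8% at 4 h. The counts of the 80 at 2 and 4 h were not far from these shares. At 8 h of BMH-21 the falls were 32.5% of the 80, where 33.4% of all genes fell, and at 8 h of CX-5461 the rises were 37.5% and the falls 13.8%, where 29.3% and 14.1% of all genes rose and fell, so the falls are near the share of all genes. The median change of the 80 was -0.29 as deposited at 8 h of BMH-21 and 0.16 at 8 h of CX-5461, beside -0.40 and 0.11 for all genes. Of the 10 genes of the oxygen sensing machinery, 7 fell at 4 h and 6 at 8 h of BMH-21, while CX-5461 gave 5 and 2 falls. Of all genes 35.7% and 33.4% fell at those times of BMH-21, while for CX-5461 the shares were 29.8% and 14.1%. Arnt, the partner of HIF1A, fell by 0.76 ± 0.11 at 4 h and 1.01 ± 0.11 at 8 h of BMH-21 (adjusted p = 1.1e-09 and 3.4e-15) and was at -0.04 at 8 h of CX-5461 (0.81). Epas1, the gene of HIF2 alpha, fell by 1.13 ± 0.12 at 8 h of BMH-21 (1.7e-16), and Vhl by 0.96 ± 0.11 (2.7e-13).

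Of 37 further HIF targets, 14 rose and 12 fell at 8 h of BMH-21, and 18 rose and 6 fell at 8 h of CX-5461, so these targets went both ways. The falls, 32.4% and 16.2% of the 37, were near those of all genes (33.4% and 14.1%), and the rises were 37.8% and 48.6%, where 24.5% and 29.3% of all genes rose. Among the 37, Pgf, Epo, Stc1 and Adm were below log2 0 in all controls. They passed the filter only through inhibitor libraries, so any rise of theirs is partly set by the filter. Ddit4, an inhibitor of mTORC signalling induced by many stresses, p53 among them, rose by 2.07 ± 0.11 and 2.25 ± 0.11 at 2 h of BMH-21 and CX-5461 (adjusted p = 1.2e-35 and 6.3e-39) and by 3.36 and 2.96 at 8 h (4.5e-58 and 1.7e-51). Pgf, a relative of Vegfa, went from 20 to 25 reads per control library to 396 to 607 at 8 h of BMH-21. Its change was 3.86 ± 0.17 there and 2.51 ± 0.17 at 8 h of CX-5461. Falls were led by Kdm3a, a histone demethylase, at 2.01 ± 0.11 (2.3e-36), and Ak4, a mitochondrial adenylate kinase, at 1.84 ± 0.11 (1.8e-33) at 8 h of BMH-21, and both were lower at 8 h of CX-5461 too, by 0.69 and 0.60 (2.6e-08 and 6.5e-07).

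Of 33 further genes of glucose and pyruvate metabolism, 10 rose and 8 fell at 8 h of BMH-21, and 12 rose and 3 fell at 8 h of CX-5461. These are 30.3% and 24.2% of the 33 with BMH-21, beside 24.5% and 33.4% of all genes, and 36.4% and 9.09% with CX-5461, beside 29.3% and 14.1%. Gapdhs and Slc2a10, among the 33, were below log2 0 in all controls and passed the filter only through inhibitor libraries. Fbp1, the gluconeogenic enzyme opposite phosphofructokinase, rose by 3.68 ± 0.16 and 3.00 ± 0.16 at 8 h of BMH-21 and CX-5461 (adjusted p = 3.5e-46 and 3.0e-37). Slc2a10, a facilitative transporter, had 2 to 5 reads per control library, 223 to 261 at 8 h of BMH-21 and 46 to 64 at 8 h of CX-5461. Pck2, the mitochondrial phosphoenolpyruvate carboxykinase, fell by 2.04 ± 0.12 and 0.69 ± 0.12 (1.8e-33 and 2.9e-07). Tigar, named for its regulation by p53, fell by 1.15 ± 0.11 at 4 h and 1.2 ± 0.11 at 8 h of BMH-21 (5.2e-18 and 2.4e-19) and was at -0.13 at 8 h of CX-5461 (0.33).

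**Figure D5:**
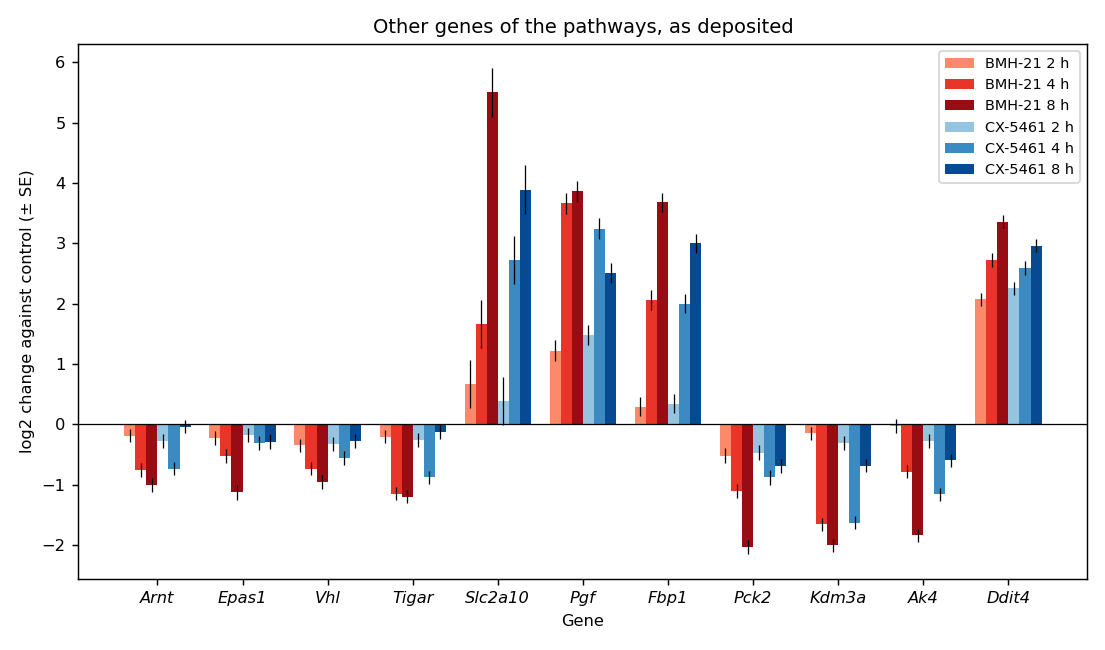
log2 change against control, as deposited (vertical axis, bars of 1 standard error), of 11 other genes of the pathways in the 6 inhibitor groups; red shades BMH-21, blue shades CX-5461, darker with time. Ddit4 is at 2.07 or more in all groups, while Kdm3a, Ak4 and Pck2 are at their lowest at 8 h of BMH-21. The bars of Slc2a10 and Pgf rest on 2 to 5 and 20 to 25 reads per control library.

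Markers of cell identity moved with the same groups. All 11 embryonic stem cell markers listed were above log2 0 in every library, and their summed level, on the linear scale of the deposited values, was 6760 to 7720 in the controls, 3700 to 4330 and 3170 to 3400 at 4 and 8 h of BMH-21, and 3910 to 4670 and 6080 to 6570 at 4 and 8 h of CX-5461. The 4 trophoblast markers summed to 4.60 to 5.91 in the controls, 55.0 to 62.8 at 8 h of BMH-21 and 28.9 to 31.3 at 8 h of CX-5461, led by Krt7. The 8 markers of fibroblasts, used as feeders in some cultures, summed to 32.5 to 36.9 in the controls, 53.8 to 66.3 and 46.7 to 56.1 at 4 and 8 h of BMH-21 and 46.7 to 48.6 at 8 h of CX-5461, and 4 of them (Col3a1, Postn, Dcn and Lum) stayed below log2 0 in every library. Between control and 8 h of BMH-21, Col1a1 (mean log2 3.15 to 5.01) and Pdgfra (1.15 to 3.15) went up. Col1a2 was near level (0.26 to 0.32) and Thy1 went down (4.48 to 3.07). Summed levels of 5 primitive endoderm markers were 10.2 to 12.7 in the controls, 18.0 to 22.6 and 15.3 to 18.3 at 4 and 8 h of BMH-21 and 15.0 or more at 8 h of CX-5461. Those of 4 mesoderm markers were 6.14 to 8.14 in the controls, 6.66 to 7.20 at 8 h of BMH-21 and 11.1 to 13.4 at 8 h of CX-5461. Those of 3 neural markers were 55.8 to 62.5 in the controls, lower at 8 h of BMH-21 (40.1 to 49.9) and higher at 8 h of CX-5461 (80.9 to 90.3). Pax6 was lower in both groups (0.22 and 2.80, against 3.26), and Nes went from 5.51 to 5.39 and 6.22. Within these sums, markers went both ways between the controls and the BMH-21 8 h libraries. Pdgfra, counted among both the fibroblast and the primitive endoderm markers, had the rise given above. Gata6 (1.12 to 1.77) and Sox17 (-0.01 to 0.26) also went up, while Gata4 (1.72 to 1.02) and Sox7 (1.51 to 0.62) went down. Of the mesoderm markers, Mesp1 went up (-1.7 to 1.65) and Mixl1 moved little (-0.26 to -0.14). Eomes (2.18 to 1.08) and T (0.25 to -0.36) went down. No marker was at 0 reads throughout a group. The part of these shifts in the changes of the glycolysis and hypoxia genes was not tested.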

How the data were processed

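Poly(A) RNA of 21 libraries (7 groups of 3) was sequenced. The deposited table holds log2 values for each gene and library, which the authors normalized with voom per the name they gave the table. The submitters' processing notes name Trim Galore 0.5.0, TopHat2 2.1.1, R 4.0.5, DESeq2 1.30.1, edgeR 3.32.1, limma 3.46.0 and build mm10 with no roles, and the counting tool and annotation are not given in the sources used here. Whole reads were recovered from the log2 steps to within 1.7e-08 of a whole number, which gave the depth (46604397 to 62812641 reads). The values contain an offset of 0.5 reads, so fold changes of low genes are understated, and 3 reads correspond to log2 values of -4.63 to -3.59.

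Genes above log2 0 in at least 3 libraries were tested (14666, with 6234 set aside). limma 3.58.1 in R 4.3.3 fitted 7 group means to the deposited values over 21 libraries, with a variance trend. Tests were two-sided, with Benjamini-Hochberg adjustment over all genes tested, for 11 comparisons. The method was tested on simulated data that held no shift shared by the genes of a library, so that test cannot speak to the scaling. The variance of a gene was moderated towards that of all genes, with 111.5 prior degrees of freedom as deposited and 8.5 after centring, against 14 residual. The p-values as deposited thus rest mostly on the pooled spread. For 0 of the 34 members was its own variance over 2 times the moderated one. Alternatives were centring on the library median, median-ratio factors, total reads, quantile normalization, other filters and offset, no variance trend, only the groups compared, a replicate block, voom weights on the recovered reads, and leaving out each library. The total-read scaling, the requirement of 4 scalings and the shares within families were chosen after seeing the data. Positions come from GENCODE M21, promoters from RefSeq on GRCm38.p6.

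The members and all gene lists were chosen with earlier results of these data known. Every member is named. Values per library are given for members called with at least a 2-fold change, as deposited and centred, in a comparison with control, and for Slc2a1, Hk2, Pfkfb3, Pgk1, Ldha, Pdk1, Hif1a, Egln3, Bnip3 and Vegfa. Other pathway genes named are Arnt, Epas1, Vhl, Tigar and the 3 largest rises and falls at 8 h of each inhibitor.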

Additional observations from a re-analysis of the deposited data

Results flagged for a closer look

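The response of 3 members differed between the inhibitors at 8 h by at least 2-fold, as deposited and after centring, by a test of the difference itself. With BMH-21 minus CX-5461 this was -1.69 for Slc2a3, -1.59 for Pdk1 and 1.71 for Pfkfb4 (limma, adjusted p = 6.1e-30, 1.8e-27 and 2.6e-26), and all 3 libraries of one inhibitor lay beyond all 3 of the other. Between 4 and 8 h of CX-5461 the difference reached 1.57 for Bnip3 and 1.69 for Ndrg1 (limma, adjusted p = 2.8e-23 and 1.8e-24), again without overlap of the libraries. Groups of 3 libraries are too small for a check of single outlying values.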

How the results depend on the processing

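Over 198 changes of named members, 3366 values were computed under other settings: 3052 kept direction and side of the threshold, 169 lost the call, 104 gained it and 41 changed sign; 96 sign changes between values that both missed the threshold were counted as kept. The scaling was the choice that moved most, and the cause of its difference between libraries was not tested. Depth limits Car9, the assignment of reads between near-identical copies limits Eno1, and precision rests on 3 libraries a group.

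The counts below are of members only, without the share of all genes under the same setting, and are not results about the list. At 2 h of BMH-21 the 9 members called became 5 with no filter. At 8 h of CX-5461 the 14 called became 25 by centring (6 higher, 19 lower), 27 by median-ratio factors (9 and 18), 22 by total reads (16 and 6) and 26 by quantile normalization (17 and 9). Between the inhibitors at 2 h, 2 became 4 by centring and by quantile normalization, 5 by median-ratio factors and by total reads, and 1 with no filter or no trend. At 4 h, 6 became 16 by centring, 14 by median-ratio factors and by quantile normalization, 12 by total reads, 2 with no filter, 3 with no trend and 2 with only the groups compared. At 8 h, 33 became 20 by centring. From 4 to 8 h of CX-5461, 30 became 19 by median-ratio factors. From 4 to 8 h of BMH-21, 24 (7 higher, 17 lower) became 28 by total reads (17 and 11) and 27 by quantile normalization (18 and 9), with the median of the members going from -0.23 to 0.08 and 0.14. The median at 2 h of CX-5461, -0.18, was 0.00 by median-ratio factors.

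Other splits of higher and lower calls moved with the scaling: at 4 h of BMH-21 8 and 12 by total reads (3 and 18 as deposited), at 8 h 11 and 12 (5 and 26), at 4 h of CX-5461 10 and 12 (3 and 24), between inhibitors at 4 h 11 and 5 by centring (3 and 3) and at 8 h 7 and 16 by total reads (1 and 32), and from 4 to 8 h of CX-5461 13 and 7 by centring (29 and 1).

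With 1 library left out the calls numbered 5 to 9, 16 to 23 and 28 to 31 at 2, 4 and 8 h of BMH-21, 6 to 17, 22 to 28 and 11 to 14 of CX-5461, 1 to 3, 2 to 6 and 29 to 33 between inhibitors, and 22 to 24 (BMH-21) and 24 to 32 (CX-5461) from 4 to 8 h. The replicate numbers did not pair the samples (correlations of same-numbered deviations -0.25 to 0.11, 1 of 63 pairs over 0.1, 4 of 21 libraries closest to their own number). With a replicate block the calls were 8, 18 and 31 (BMH-21), 7, 27 and 13 (CX-5461), 2, 5 and 33 (between inhibitors), 24 and 30 (8 h against 4 h), and 194 of 198 changes kept their call.

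Sign changes by gene were as follows, the cause not tested. By total reads, Slc16a3 8 h against 4 h of BMH-21 went from -0.11 to 0.21. Pfkp 8 h against 4 h of CX-5461 went from 0.25 to -0.13 (centring), -0.12 (median-ratio) and -0.02 (quantile). Pgk1 went from -0.58 to 0.12 at 8 h of BMH-21 and from -0.06 to 0.19 at 8 h of CX-5461 (quantile), and from -0.27 to 0.04 (total reads) and 0.15 (quantile) for 8 h against 4 h of BMH-21. Pfkfb3 went from -0.01 to 0.17 (median-ratio) and 0.21 (total reads) at 4 h of BMH-21 and from -0.40 to 0.13 (total reads) at 8 h. Between inhibitors at 8 h it went from -0.39 to 0.04 (centring), 0.08 (median-ratio), 0.06 (total reads) and 0.04 (quantile), and for 8 h against 4 h of CX-5461 from 0.31 to -0.06, -0.05 (centring, median-ratio) and -0.07 (quantile). Ldha under quantile normalization was 0.13 at 8 h of BMH-21, 0.10 at 8 h of CX-5461, 0.03 between inhibitors at 8 h and 0.17 for 8 h against 4 h of BMH-21 (-0.55, -0.06, -0.49 and -0.35 as deposited), and for 8 h against 4 h of CX-5461 it went from 0.29 to -0.08 (centring) and -0.07 (median-ratio). Hif1a by total reads was 0.02 at 8 h of BMH-21 and 0.12 for 8 h against 4 h. Between inhibitors at 8 h it was 0.14 (centring), 0.19 (median-ratio), 0.17 (total reads) and 0.17 (quantile), and for 8 h against 4 h of CX-5461 -0.21 and -0.20 (centring, median-ratio). Egln3 between inhibitors at 8 h went from -0.27 to 0.16 (centring), 0.20 (median-ratio), 0.19 (total reads) and 0.16 (quantile). Vegfa went from -0.02 to 0.23 (median-ratio) and 0.30 (total reads) at 4 h of CX-5461, and for 8 h against 4 h of CX-5461 from 0.35 to -0.02 (centring), -0.01 (median-ratio) and -0.01 (quantile).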
